A study of Mus musculus with 9 samples.

Results

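Expression was examined for 58 developmental transcription factor genes of the non-Hox homeobox and paired-box families in mouse embryonic stem cells (mESCs) with and without the Polycomb protein RING1B. The genes were taken from a list of names that was chosen with earlier results of these data known. Each of the 58 had at least 1 probe among the 21713 genes of the deposited expression table. They comprise 12 LIM homeobox, 8 Pax, 5 Nkx, 6 Dlx, 3 Meis, 4 Irx and 4 Pitx or Otx genes, with Six2, Six3 and Six6, and 13 other homeobox genes. Where a gene had several probes, the one with the highest mean signal stands for it.

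Homeobox genes encode transcription factors that bind DNA through a homeodomain, and Pax proteins bind it through a paired domain, some of them with a homeodomain as well. These factors set regional and cell type identity in the embryo, for example in forebrain, eye, spinal cord, heart, limb and jaw. In pluripotent cells most of their genes are known to be silent under Polycomb repression. Polycomb repressive complex 1 (PRC1) compacts chromatin and, through the E3 ligase RING1B, attaches ubiquitin to histone H2A.

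RNA was measured in 9 samples of E14Tg2a mESCs, a male line of strain 129P2/OlaHsd grown in serum with LIF, with 1 single-colour array per sample and 3 samples per group. Wild-type cells (WT) are the parental line. Ring1B-/- cells (KO) lack exon 3 of both alleles of Rnf2, the gene of RING1B. Ring1B I53A/I53A cells (I53A) carry on both alleles a substitution that removes the ligase activity and leaves the protein able to enter PRC1. The arrays therefore address how far transcription held down by RING1B depends on its ligase activity. Both mutants were derived from the same parental cells, the sources describe no second line of either genotype on the arrays, and the KO columns of the deposited table carry a single line name, so line and mutation cannot be told apart. The methods name 3 biological replicates per group without saying how they were grown. The sample titles number the KO samples 1 to 3, but another label gives all 3 of them the number 1, and the p-values cover only the spread between these samples. The lowest correlation between arrays of a group was 0.959 in KO, 0.966 in WT and 0.963 in I53A.

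The Rnf2 probe gave a log2 signal of 8.32, 8.27 and 8.47 on the WT arrays, 7.35, 7.92 and 8.08 on the KO arrays and 8.69, 9.10 and 8.59 on the I53A arrays. The KO arrays were the lowest of the 3 groups, but the difference from WT did not pass the test (limma adjusted p 0.288), and the position of this probe with respect to exon 3 is not known here. The scanner software placed 45.4% to 53.7% of the tested probes well above background on the WT arrays, 50.1% to 56.2% on the KO arrays and 55%, 51.4% and 57.4% on the I53A arrays, and 18 to 30 of the 58 genes. The KO arrays lay in the third column of the slides and the other groups in the first and second, so slide column cannot be told apart from genotype.

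By their brightest probe, 17 of the 58 genes were above background on all 9 arrays, 17 on some arrays and 24 on none. Their share at background on every array, 41.4%, compares with 5964 of the 21713 genes measured. On all 3 arrays of a group, 17 genes were above background in WT, 23 in KO and 22 in I53A, where the WT arrays also had the lowest median share of all probes above background. Otx2 and Gbx2, which pattern the anterior neural plate and the midbrain-hindbrain boundary and are also active in pluripotent cells, had WT levels of 9.56 ± 0.04 and 9.49 ± 0.21 (log2 signal, ± SD over n = 3 arrays here and for every group mean). Dlx3 followed at 7.66 ± 0.33, and the other 14 genes above background on all arrays had WT means from 4.99 (Dlx5) to 6.75 (Dlx6). These levels come from different probes, so their order is not an order of transcript abundance.

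**Figure D1:**
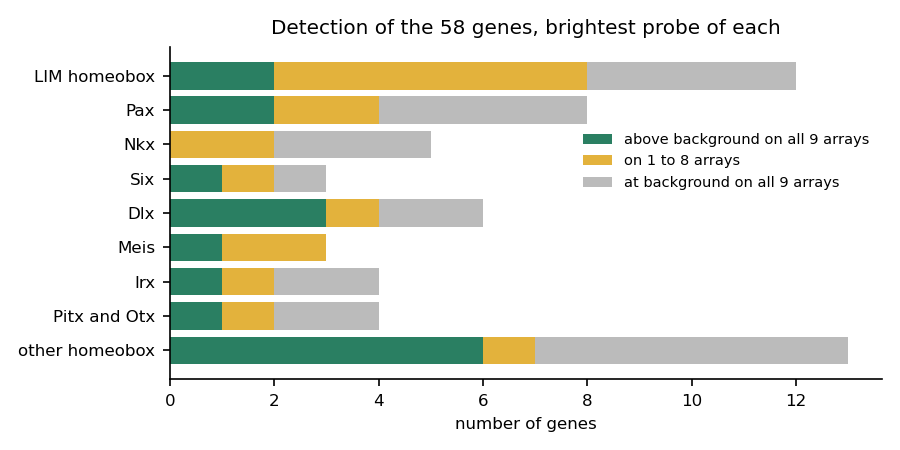
Number of genes in each family (horizontal axis) whose brightest probe was above background on all 9 arrays, on 1 to 8 arrays or on none. Every family holds genes of more than 1 kind, and the 3 Meis genes are the only family with none at background on all arrays.

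The first question was which of these genes change when RING1B is lost. A gene was called at a Benjamini-Hochberg adjusted p under 0.05 in limma and a change of more than 2-fold. In KO cells 7 of the 58 genes were called higher than in WT, namely En2, Meis1, Meis2, Lhx2, Barx1, Msx1 and Nkx2-5, which is 12.1% of them, where 2.92% of all genes were called higher. None was called lower by limma, where 1.17% of all genes were. At an unadjusted p under 0.05, 11 of the 58 were higher and 0 lower, against 10% and 8.29% of all genes. In these bulk samples, fewer cells of a type and less RNA per cell cannot be told apart. The median log2 difference of the 58 genes was 0.11 and that of all genes −0.02. In 13 of the 58 genes, 22.4%, every KO array was above every WT array, which held for 12.1% of all genes. In 2 genes, Lhx5 and Nkx6-1, every KO array was below every WT array, against 13.5% of all genes, and both were at background on all 9 arrays.

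In I53A cells 2 of the 58 genes were called higher than in WT, Meis1 and En2, where 0.29% of all genes were, and none was called lower, where 0.111% were. At an unadjusted p under 0.05, 8 were higher and 0 lower, against 5.83% and 3.94% of all genes. In the direct comparison of the mutants only Meis2 was called higher in KO, where 1.06% of all genes were, and none was called lower, where 0.405% were. At an unadjusted p under 0.05, KO exceeded I53A in 9 and was below it in 3, against 6.33% and 5.38% of all genes. Arrays did not overlap in 10 genes with I53A above WT (8.71% of all genes) and in 4 with I53A below WT (9.69%). They did not overlap in 11 genes with KO above I53A (7.84%) and in 2 with KO below I53A (8.11%). Both comparisons with WT use the same 3 WT arrays, so the changes in KO and I53A are given side by side below and not as independent measurements.

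**Figure D2:**
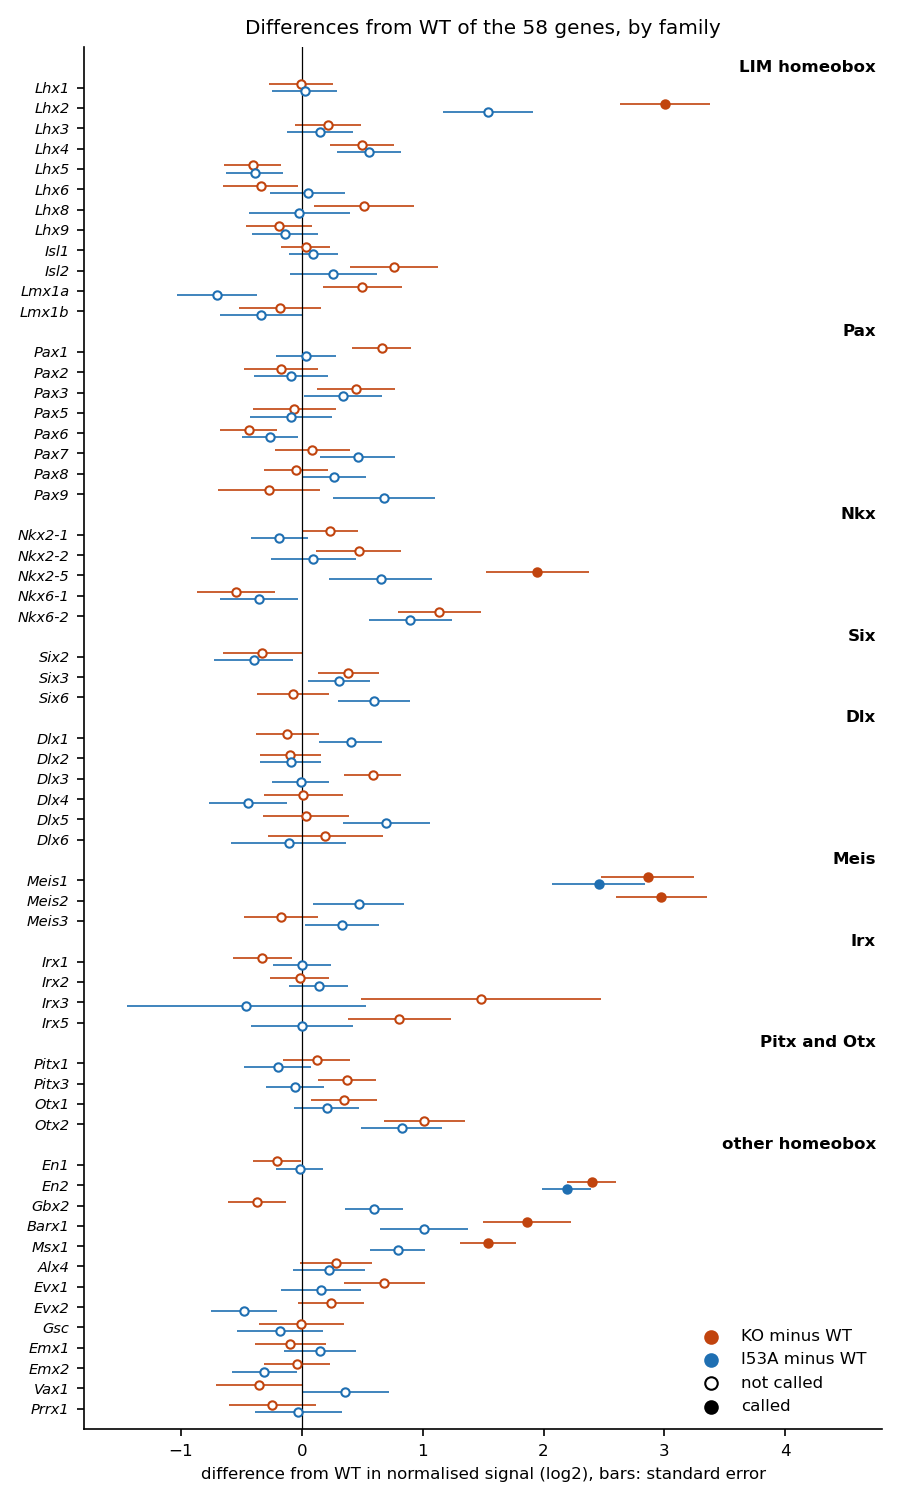
Difference from WT in log2 signal (horizontal axis) for each of the 58 genes by family, KO in orange and I53A in blue, with standard errors from limma and filled points for called genes. The called KO differences of the 3 genes above background in both groups lie between 1.54 and 2.40, and points of genes at background in either group are no measure of a fold.

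The Meis genes encode TALE-class homeodomain proteins that act as cofactors of Hox and Pbx proteins, and the 3 genes gave 3 patterns. Meis1 (chromosome 11, 18880428 to 19019651 in GRCm38) had log2 signals of 4.05, 4.85 and 4.83 in WT, 6.80, 7.63 and 7.89 in KO and 6.46, 7.04 and 7.61 in I53A. Both mutants lay above all WT arrays and overlapped each other, and the WT arrays were all at background. The fitted change of Meis1 from WT was 7.27-fold in KO (limma adjusted p 0.00258) and 5.49-fold in I53A (adjusted p 0.0335). An array's background limit is the lowest signal flagged above background among its tested probes. For the folds of Meis2 and Lhx2 given below, signals under that limit were raised to it. Probes at background can have signals above it, so these folds are not strict lower bounds. The Meis1 WT signals lay above the limits and none was raised. Its folds are therefore estimates against a group at background and not lower bounds. The difference between KO and I53A was 0.40 on the log2 scale (SE 0.38) and did not pass the test (adjusted p 0.798). The I53A call was lost without any one of the WT arrays, KO 2, I53A 2 or I53A 3 (adjusted p up to 0.14) and with slide as a block (adjusted p 0.0607), while the KO call held in each of these fits.

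Meis2 (chromosome 2, 115861264 to 116067537) had log2 signals of 2.49, 2.73 and 3.58 in WT, 5.92, 6.17 and 5.65 in KO and 2.84, 3.28 and 4.10 in I53A. Only the KO arrays were above background, and they lay above all arrays of the other groups, which overlapped. Meis2 was called higher in KO than in WT (limma adjusted p 0.00182) and than in I53A (adjusted p 0.0103). With signals under the limit raised to it, the fold of KO was 4.46 over WT and 4.35 over I53A. No fold is given for I53A against WT, where both groups were at background (adjusted p 0.755). The call between the mutants was lost without array I53A 2 (adjusted p 0.0537). Meis3 was above background on all 9 arrays at 6.34, 6.88 and 6.94 in WT, 6.92, 6.69 and 6.05 in KO and 6.78, 7.48 and 6.89 in I53A, with overlapping groups and no call.

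Meis1 lies on chromosome 11, whose 1714 genes had a median log2 difference of 0.22 in KO and −0.01 in I53A, against −0.04 and −0.01 for the genes of the other chromosomes. The part of this shift in the KO values of Meis1, Lhx1, Dlx3, Dlx4 and Otx1, the 5 of the 58 genes on chromosome 11, was not tested. The part of the chromosome in the I53A change of Meis1 was not tested either.

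The 250 bases before a RefSeq start site are shown for Meis1 and Meis2, related genes of which only the first was called in I53A, and for Lhx2, the LIM homeobox gene called in KO. CpG dinucleotides, which are dense at most Polycomb-repressed promoters, are in capitals, and each sequence is read 5′ to 3′ on the gene's strand.
Meis1, chr11:19018970-19019219, minus strand: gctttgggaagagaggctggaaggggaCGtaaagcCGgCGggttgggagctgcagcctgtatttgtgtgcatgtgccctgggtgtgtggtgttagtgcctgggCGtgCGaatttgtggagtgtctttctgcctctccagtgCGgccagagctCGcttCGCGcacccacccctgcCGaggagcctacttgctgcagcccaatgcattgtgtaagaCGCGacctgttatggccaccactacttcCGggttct
Meis2, chr2:116064620-116064869, minus strand: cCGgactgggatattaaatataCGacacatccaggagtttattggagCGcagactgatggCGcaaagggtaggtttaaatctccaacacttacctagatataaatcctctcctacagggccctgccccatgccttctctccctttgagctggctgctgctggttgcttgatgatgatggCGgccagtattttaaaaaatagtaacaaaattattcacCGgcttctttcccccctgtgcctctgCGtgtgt
Lhx2, chr2:38351058-38351307, plus strand: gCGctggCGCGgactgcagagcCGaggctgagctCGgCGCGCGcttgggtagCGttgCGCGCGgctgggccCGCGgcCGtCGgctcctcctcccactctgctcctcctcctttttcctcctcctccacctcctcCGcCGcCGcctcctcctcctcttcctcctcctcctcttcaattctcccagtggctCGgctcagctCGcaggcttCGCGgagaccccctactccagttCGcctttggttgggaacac
The Meis1 window holds 13 CpG (the letters CG, which read the same on both strands), the Meis2 window 7 and the Lhx2 window 24. Of the 15336 genes with such a window, 46.6% hold at least as many as Meis1, 63.6% as many as Meis2 and 16.6% as many as Lhx2, and the median is 11. The start site used is the RefSeq start nearest to the one in the deposited table. It lies 11, 428 and 550 bases from that one for Meis1, Meis2 and Lhx2. Each window lies inside the span given for its gene, so the counts do not describe the outermost start. CpG content was not compared over the 58 genes, because only 46 of them, 79.3%, had a window.

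LIM homeobox genes encode factors that specify neurons and organs and bind partners through their LIM domains. Lhx2 (chromosome 2, 38339271 to 38369737), which acts in forebrain and eye development, had log2 signals of 2.95, 2.84 and 2.80 in WT, 5.48, 5.30 and 6.82 in KO and 4.08, 4.48 and 4.66 in I53A. The 3 groups did not overlap, with I53A between the others. Background was exceeded on 2 KO arrays only, and Lhx2 was called higher in KO than in WT (limma adjusted p 0.00165). With WT signals raised to the limit the fold was 4.33, the KO array at background included. I53A did not pass the test against WT (adjusted p 0.163), nor KO against I53A (adjusted p 0.112).

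The other 11 LIM homeobox genes were not called in any of the 3 comparisons. Lhx1, an organiser and kidney gene, was above background on all 9 arrays at 6.86, 6.54 and 6.43 in WT, 6.78, 6.71 and 6.31 in KO and 7.0, 6.70 and 6.19 in I53A. Lmx1b, a gene of limb and hindbrain, was at 5.90, 5.91 and 6.2 in WT, 6.26, 5.07 and 6.15 in KO and 5.23, 5.80 and 5.96 in I53A and above background throughout. In both genes the 3 groups overlapped. Lhx9 passed background on all KO and I53A arrays and 2 WT arrays, at 5.62, 5.53 and 6.01 in WT, 5.80, 5.75 and 5.05 in KO and 5.78, 5.64 and 5.33 in I53A. Lmx1a, a gene of midbrain dopaminergic progenitors, was at 5.35, 5.58 and 4.65 in WT, 5.85, 5.51 and 5.72 in KO and 4.31, 4.07 and 5.11 in I53A. Its KO arrays lay above its I53A arrays, but the difference between the mutants did not pass the test (adjusted p 0.139). Lhx4, Lhx6 and Isl2 were above background on some arrays, and Lhx3, Lhx5, Lhx8 and Isl1, which specify motor and forebrain neurons, on none.

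The called genes among those grouped as other homeobox genes were En2, Barx1 and Msx1, all above background in every group. En2 (chromosome 5, 28165696 to 28172190), a gene of the midbrain-hindbrain region, had log2 signals of 6.55, 6.71 and 6.33 in WT, 8.90, 8.90 and 8.98 in KO and 8.65, 8.79 and 8.71 in I53A. Every KO and I53A array was at least 1.95 above the highest WT array. The log2 difference from WT was 2.40 in KO (SE 0.20, limma adjusted p 0.000163) and 2.19 in I53A (adjusted p 0.00243). KO exceeded I53A by 0.21 (SE 0.20), which did not pass the test (adjusted p 0.802). The related gene En1 was at background on all 9 arrays.

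Msx1 (chromosome 5, 37820491 to 37824585), a target of BMP signalling in limb bud and face, had log2 signals of 5.59, 5.80 and 5.42 in WT, 6.83, 7.19 and 7.40 in KO and 6.24, 6.49 and 6.46 in I53A. The 3 groups did not overlap, and I53A lay between WT and KO. Msx1 rose by 1.54 in KO on the log2 scale (SE 0.23, limma adjusted p 0.00455). The I53A difference of 0.79 (adjusted p 0.267) and the difference between KO and I53A of 0.75 (adjusted p 0.2) did not pass.

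Barx1 (chromosome 13, 48663036 to 48666507), a gene of stomach mesenchyme and jaw, was at 4.58, 5.02 and 5.47 in WT, 7.57, 6.64 and 6.46 in KO and 5.52, 6.28 and 6.32 in I53A. The groups again did not overlap, by 0.06 between WT and I53A and by 0.14 between I53A and KO. It rose by 1.86 in KO (SE 0.36, limma adjusted p 0.0193), and the I53A difference of 1.01 did not pass (adjusted p 0.405). The KO call was lost without WT 1, WT 2 or KO 1 (adjusted p up to 0.0806). Gene by gene, the I53A difference amounted to 91.3% of the KO difference on the log2 scale for En2, 54.5% for Barx1 and 51.4% for Msx1. No error was computed for these ratios, and both differences share the WT arrays. KO against I53A passed the test for none of these genes (Barx1 limma adjusted p 0.408), so a partial effect is not established.

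**Figure D3:**
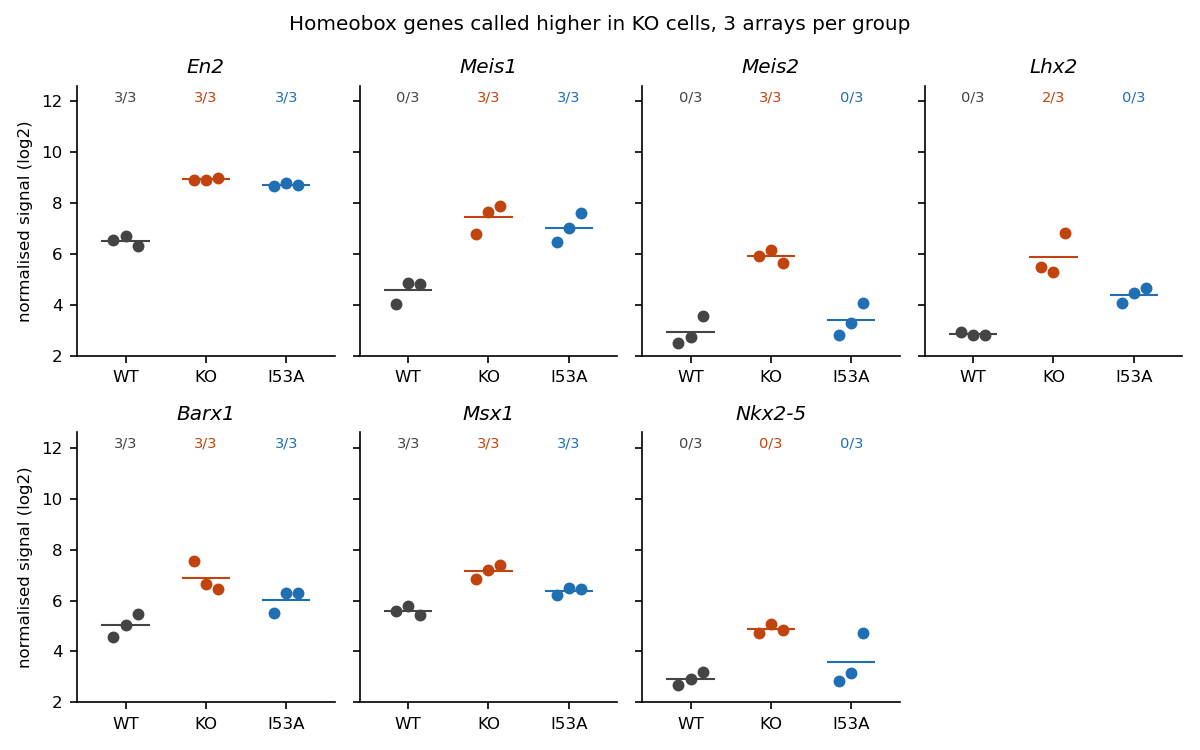
Log2 signal of each array (points) and group mean (lines) for the 7 genes called higher in KO, with the number of arrays above background out of 3 at the top of each group. En2 and Meis1 sit at like levels in KO and I53A, Meis2 is raised in KO alone, and Lhx2, Barx1 and Msx1 have I53A between the other groups.

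Gbx2, which marks the anterior hindbrain, was at 9.71, 9.30 and 9.45 in WT, 8.91, 8.99 and 9.45 in KO and 10.24, 10.13 and 9.87 in I53A. Every I53A array was above every WT and KO array, and KO and WT overlapped. KO was 0.97 below I53A on the log2 scale, which did not pass the test (limma adjusted p 0.101). Emx1, a gene of the cortex, was above background on all arrays at 6.31, 6.47 and 5.80 in WT, 5.88, 6.25 and 6.17 in KO and 6.91, 6.1 and 6.04 in I53A. Vax1, a gene of the optic nerve, was above background throughout at 6.21, 5.46 and 6.18 in WT, 4.92, 6.07 and 5.79 in KO and 6.72, 6.31 and 5.90 in I53A. Neither was called, and their groups overlapped. Prrx1, a limb mesenchyme gene, passed background on 4 arrays, and En1, Alx4, Evx1, Evx2, Gsc and Emx2 passed it on none.

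Nkx genes act in ventral neural tube, heart and gut. Nkx2-5 (chromosome 17, 26838664 to 26844988), a gene of heart progenitors, had log2 signals of 2.68, 2.91 and 3.18 in WT, 4.72, 5.07 and 4.84 in KO and 2.84, 3.16 and 4.73 in I53A. The KO arrays were above the WT arrays and the gene was called (limma adjusted p 0.031), but all 9 arrays were at background, so no fold is given. The call was lost without any one of the 6 WT and KO arrays (adjusted p up to 0.111). Nkx6-2 was at 4.98, 4.69 and 4.83 in WT, 5.83, 5.64 and 6.45 in KO and 5.05, 5.78 and 6.37 in I53A. It was above background on all arrays of both mutants and on 2 WT arrays, and it did not pass the test in KO (adjusted p 0.105) or I53A (adjusted p 0.448). Nkx2-2, a ventral neural tube gene, was at 5.48, 5.94 and 5.14 in WT, 6.36, 5.28 and 6.33 in KO and 5.20, 5.75 and 5.91 in I53A, with overlapping groups, and Nkx2-1 and Nkx6-1 were at background throughout.

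No Pax gene was called in the 3 comparisons. Pax2, a kidney gene, was above background on all 9 arrays at 6.88, 6.72 and 6.57 in WT, 6.80, 6.72 and 6.14 in KO and 6.86, 7.04 and 6.01 in I53A. Pax6, the eye and forebrain regulator, was above background throughout at 6.79, 6.55 and 6.32 in WT, 5.88, 6.36 and 6.1 in KO and 6.23, 6.14 and 6.51 in I53A, and its log2 difference in KO was −0.44 (adjusted p 0.372). Pax5, a B cell and midbrain gene, was above background on all KO arrays and on 2 arrays of each other group, at 5.64, 5.08 and 5.47 in WT, 5.42, 5.06 and 5.52 in KO and 5.72, 5.70 and 4.50 in I53A. In all 3 genes the groups overlapped. Pax3 passed background on 1 I53A array, and Pax1, Pax7, Pax8 and Pax9 on none.

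Dlx, Irx, Pitx and Otx genes likewise gave no call in any comparison, nor did Six2, Six3 and Six6. Otx2 was at 9.60, 9.51 and 9.57 in WT, 9.92, 11.01 and 10.80 in KO and 10.96, 10.00 and 10.19 in I53A, so both mutants lay above WT and spread more widely. The difference from WT was 1.01 in KO (limma adjusted p 0.137) and 0.83 in I53A (adjusted p 0.482). Its second probe, which passed background on 2 arrays, gave means of 4.88, 5.08 and 4.17 in WT, KO and I53A.

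Dlx3, a gene of placenta and skin, was at 7.68, 7.99 and 7.32 in WT, 8.20, 8.45 and 8.10 in KO and 7.72, 7.60 and 7.64 in I53A. Its KO arrays lay above all others without passing the test (limma adjusted p 0.22 against WT). Dlx genes lie in pairs, and the neighbours differed in detection. Dlx5 and Dlx6, 9.8 kb apart, were both above background on all 9 arrays. The values were 4.73, 4.66 and 5.57 in WT, 5.49, 4.86 and 4.72 in KO and 5.14, 6.22 and 5.71 in I53A for Dlx5 and 6.42, 6.97 and 6.86 in WT, 7.47, 5.70 and 7.67 in KO and 6.18, 7.06 and 6.68 in I53A for Dlx6, with overlapping groups. By contrast Dlx4, 15.2 kb from Dlx3, and Dlx2, 9.4 kb from Dlx1, were at background throughout. Dlx1 was above background on all I53A arrays (5.50, 5.59 and 5.42), 2 WT arrays and no KO array, with no call. Six3, an eye and forebrain gene, was above background on all arrays at 6.34, 5.81 and 5.56 in WT, 6.27, 6.11 and 6.49 in KO and 6.21, 6.38 and 6.05 in I53A. Its neighbour Six2 at 36.5 kb was at background on all 9 arrays by its brightest probe, while its other probe passed on 1 KO array, and Six6 passed background on 4 arrays.

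Irx genes encode TALE-class factors of neural tube and heart. Irx3 was at 3.54, 2.73 and 3.05 in WT, 3.11, 3.02 and 7.64 in KO and 2.86, 2.25 and 2.84 in I53A. It was above background on array KO 3 alone, and with a KO spread of 2.64 (SD) it did not pass the test (limma adjusted p 0.495). Irx5, in the same gene cluster on chromosome 8, was at background on all 9 arrays and reached its highest value, 4.61, on KO 3 as well. Of the called genes, Lhx2, Meis1, En2 and Msx1 also had their highest value on that array. Meis2 and Nkx2-5 were highest on KO 2 and Barx1 on KO 1. Irx2 was above background on all arrays at 6.34, 6.03 and 6.35 in WT, 5.87, 6.40 and 6.40 in KO and 6.66, 6.24 and 6.23 in I53A, and Irx1, Pitx1 and Otx1 were at background throughout. Pitx3, a dopaminergic neuron and lens gene, passed background on 1 KO array.

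**Figure D4:**
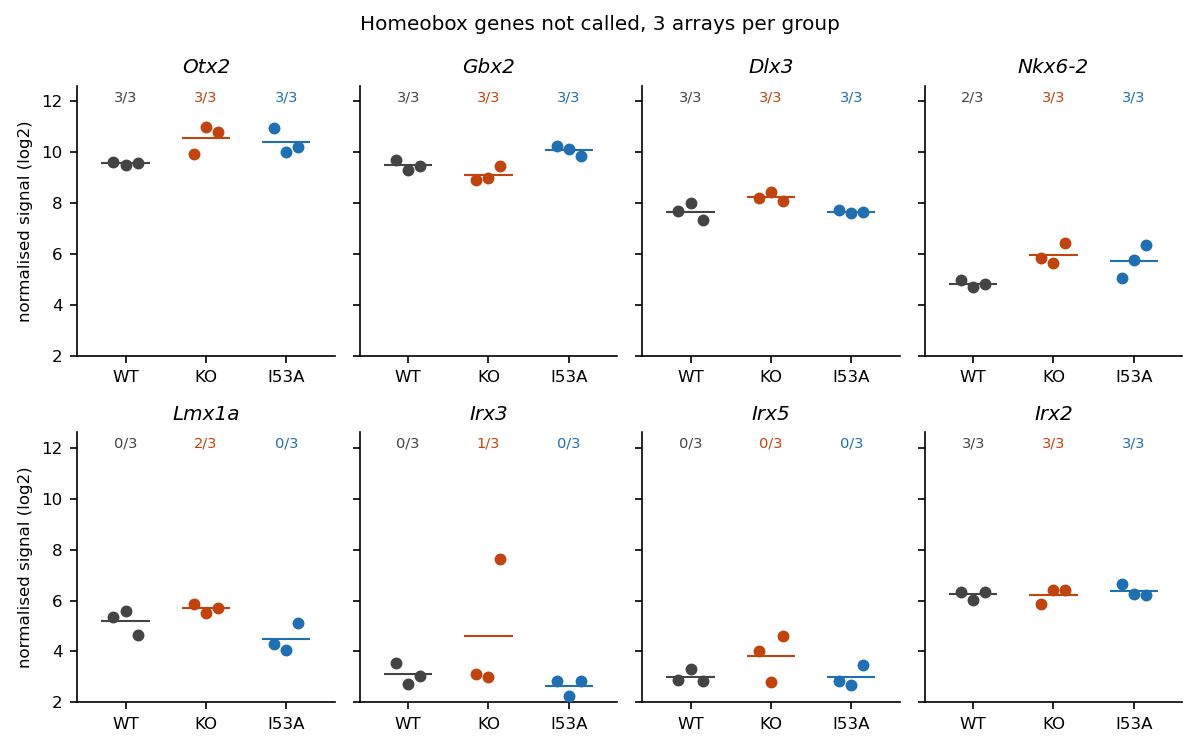
Log2 signal of each array (points) and group mean (lines) for 8 genes without a call, with the number of arrays above background out of 3 at the top of each group. Irx3 is near 3 on every array but KO 3, where it is 7.64, and Gbx2 is highest in I53A.

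Other non-Hox homeobox genes are given beside the 58. Both lists were chosen with earlier results of these data known, so the difference between their shares called was not tested. Of 63 measured, 2 were called higher in KO (3.17%, against 2.92% of all genes) and 0 lower (against 1.17%). None was called in I53A against WT, where 0.29% of all genes were higher and 0.111% lower. Limma's unadjusted p was under 0.05 for 7 higher and 4 lower genes in KO, against 10% and 8.29% of all genes. In I53A it was so for 6 and 1, against 5.83% and 3.94%. The called genes were Hmx1, a gene of sensory and craniofacial development (limma adjusted p 0.00471), and Tlx2, a gene of enteric neurons (adjusted p 0.00183). Both were at background on all WT arrays and above it on all KO arrays. Prrx2 was the only one called between the mutants, lower in KO (adjusted p 0.0231), where 0.405% of all genes were. Their median log2 difference in KO was 0.06, against 0.11 for the 58 genes.

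Homeodomain and Pax factors act with partner proteins, of which 26 were measured. Lmo2, a LIM-only protein that binds the same LDB adaptors as LIM homeodomain proteins, was at background in WT and called higher in KO (limma adjusted p 0.000498) and in I53A (adjusted p 0.00884). Its group means were 2.37 in WT, 5.65 in KO and 5.16 in I53A. Ssbp3, which stabilises LDB complexes, fell by 1.43 in KO against WT (adjusted p 0.0158) and by 1.49 in KO against I53A (adjusted p 0.0271). Pbx3, a DNA-binding partner of Meis proteins, fell by 1.09 in KO (adjusted p 0.0265) and was at 6.89 in I53A against 7.05 in WT, with no call. The other 23 partners had no call in any of the 3 comparisons. Of the 26, 3.85% were called higher in KO, against 2.92% of all genes, and 7.69% lower, against 1.17%. In I53A 3.85% were called higher, against 0.29%, and between the mutants 3.85% were lower in KO, against 0.405%.

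Markers of other cell types moved in KO beside the homeobox genes. Of all genes, 2.92% were called higher and 1.17% lower in KO, and 0.29% and 0.111% in I53A. Of 11 pluripotent cell markers measured, 11 were above background in at least 1 group and 1, Sox2, was lower in KO. Linear signals of the 9 with a value on every array (all but Nanog and Tdgf1) were summed and the log2 of the sum taken. It was 14.90 to 15.12 in WT, 14.80 to 14.89 in KO and 14.96 to 14.99 in I53A. The sums of the other lists were formed in the same way, and bright genes weigh most in them. Of 14 endoderm markers, 4 were higher in KO (Col4a1, Gata4, Gata6 and Sox17) and none in I53A. The log2 of the sum over the 14 was 9.73 to 10.01 in WT, 10.60 to 11.22 in KO and 9.76 to 9.93 in I53A. Lama1, among the brightest of these markers, had means of 8.03 in WT and 9.45 in KO without a call against WT (limma adjusted p 0.0544). The endoderm markers Afp, Dab2, Foxa2, Pdgfra and Sox7 were at background on every array.

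Of 12 neural progenitor markers, Nes, Neurog1 and Zic1 were higher in KO and Nes in I53A, and Neurog2 was at background throughout. The log2 of their summed linear signals was 9.56 to 9.88 in WT, 9.88 to 10.10 in KO and 10.18 to 10.42 in I53A. Of 12 early mesoderm markers, Eomes, Mesp2 and Snai1 were higher in KO and none in I53A, with sums of 8.96 to 9.18 in WT, 9.42 to 9.73 in KO and 9.23 to 9.37 in I53A, and Mesp1, Foxf1, Hand2 and Pdgfra were at background throughout. Only 6 of these 12 had a log2 difference above 0 in KO, and the median was 0.02. Hand1, above background on all 9 arrays, fell by 0.76 in KO without a call (limma adjusted p 0.154). Of 10 trophoblast markers 2 were higher in KO (Ascl2 and Plac1). At limma's unadjusted p under 0.05, 4 were lower without a call, where 8.29% of all genes were lower. The sums of the 10 were 13.35 to 13.49 in WT, 12.78 on each KO array and 13.52 to 13.84 in I53A, with Elf5 at background. Of 12 fibroblast markers Thy1 was higher and Acta2 and Tagln were lower in KO, with sums of 11.59 to 12 in WT, 10.95 to 11.37 in KO and 11.65 to 11.92 in I53A, and Lum and Postn were at background. The part of these cell types in the homeobox changes was not tested.

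The calls of 6 of the 7 genes were lost when the fit started from median spot signals with normexp background correction in place of the processed signals, a change of both signal and correction. En2 was then the only one of the 58 genes called in KO (log2 difference 1.71, limma adjusted p 0.000529) and in I53A (1.51, adjusted p 0.00436). Meis2, Barx1 and Msx1 kept an adjusted p under 0.05 in KO with fitted differences under 2-fold, 0.77 on the log2 scale for Barx1 and 0.87 for Msx1. Meis1 (adjusted p 0.0794), Lhx2 (adjusted p 0.161) and Nkx2-5 (adjusted p 0.223) did not pass.

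The arrays lay on 2 slides, with 2 arrays per group on the first and 1 on the second. Within each slide the mean KO signal of all 7 genes was above that of WT. This had to hold, because every KO array of these genes lay above every WT array, and it is no separate support. For the genes above background in both groups the KO difference on slides 1 and 2 was 2.31 and 2.58 for En2, 1.74 and 2.10 for Barx1 and 1.60 and 1.41 for Msx1. The I53A difference from WT was 2.09 and 2.39 for En2. Meis1 had a higher mean in I53A than in WT and Meis2 a higher mean in KO than in I53A on both slides, each against a group at background. These orders too were fixed, because the arrays compared did not overlap.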

How the data were processed

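The 58 genes and all lists were chosen with earlier results of these data known. RNA was labelled with Cy3 and hybridised to Agilent SurePrint G3 mouse arrays, and the authors extracted spots with Feature Extraction 11.5.1.1 (the submitters' processing notes also name limma and the build mm10). The deposited scan files hold a background-subtracted fluorescence intensity per spot on a linear scale. The deposited series table holds log2 intensities that the authors averaged over repeated probes and quantile normalised, for 30170 probes that map to 1 Ensembl gene. Its columns of fold changes and p-values were not used.

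The analysis started from these intensities (R 4.3.3, limma 3.58.1). Outlier spots and the 3671 controls of each array were left out, the log2 processed signals of the 9 arrays were quantile normalised over 55681 probes, and the 30170 probes were tested with limma, each group having its own mean and 6 degrees of freedom remaining (two-sided, Benjamini-Hochberg over all probes). Of these probes 24552 were named by their RefSeq accession or symbol, 2371 through the Ensembl gene, and 3247 had no symbol. Promoter windows and gene positions are RefSeq GRCm38.p6. "Above background" is the software's flag. Every gene was eligible to be named, with values per array for called genes and those above background on all arrays of a group. On simulated data with 100 probes each in the KO comparison, 71 changes of 1.5 and 99 of 2.5 (log2) were recovered. There were 12 false calls among 30170 probes. Recovery at the signal levels of the 7 called genes was not tested. Groups and replicate numbers come from the sample titles, although another label numbers every KO sample 1. Precision is limited by 3 arrays per group. Alternatives were 75th percentile scaling, normexp (offset 50) on median signals because the mean signal is not among the columns used here, the deposited table, a filter on dim probes, the mean of all probes, no minimum fold, slide, replicate number and each array left out.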

Additional observations from a re-analysis of the deposited data

How the results depend on the processing

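No gene among the 58 was called lower in any comparison under any alternative run, and no called difference changed direction, while differences without a call crossed 0 in some fits (Lhx1 in KO, from −0.10 to 0.14 with 1 array left out). The 7 genes higher in KO became 1 with normexp correction of median signals (0.903% of all genes called higher, against 2.92%) and 5 on slide 1 alone (1.04%). With dim probes filtered they became 6 (5.75% of the genes left). There Nkx6-2 was gained (adjusted p 0.0429) and Lhx2 and Nkx2-5 were no longer tested. All 7 held with 75th percentile scaling, the deposited table, mean of all probes, no minimum fold or slide as a block (2.86% to 3.08%). Of the 2 genes higher in I53A, 75th percentile scaling left 1 (0.134% of all genes), normexp 1 (0.0967%) and slide as a block 1 (0.235%). Each of these fits lost Meis1. On slide 1 alone 0 were left, where 1 gene of all was higher. The 1 gene higher in KO than in I53A became 0 with normexp (0.391% of all genes). Leaving out 1 array gave 5 to 7 genes higher in KO, 1 to 3 in I53A and 0 to 2 in KO against I53A. Of all genes, 1.68% to 2.82%, 0.0599% to 0.244% and 0.525% to 0.912% were higher in these comparisons. Lhx2 was gained in I53A without KO 3 (adjusted p 0.0411), and Nkx2-5 between the mutants without I53A 3 (adjusted p 0.0152). The cause of these shifts was not tested.

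Deviations of arrays from their group had correlations of −0.27 to 0.22 for the same replicate number and −0.20 to 0.28 for different numbers. With the KO numbering uncertain, these values cannot decide whether the samples were paired. With the replicate number as a block, 6 genes were higher in KO (all but Barx1, adjusted p 0.0594), 2 in I53A and 1 in KO against I53A. Of all genes, 2.09% were higher in KO, 0.0691% in I53A and 0.594% in KO against I53A. The 24 genes whose brightest probe was at background on all 9 arrays have no measured level on that probe, which limits statements about them to the flag.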

Other observations

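Of the 58 genes 20 had several probes in the deposited table, and the probes often differed in detection. For 9 of them the brightest probe was above background on all 9 arrays, and for none of the 9 was another probe. For 6 of the 9 (Irx2, Lhx1, Lmx1b, Pax6, Six3 and Vax1) another probe was at background on all 9 arrays. The 7 called genes had 1 probe each, so no second probe of theirs bears on the calls.

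A probe assigned to Lhx6 that the deposited table leaves out was bright on all 9 arrays, with log2 signals of 10.59 ± 0.15 in WT, 9.96 ± 0.32 in KO and 10.33 ± 0.26 in I53A (adjusted p 0.286 in KO by limma). The Lhx6 probe kept in the table gave means of 4.95, 4.61 and 5.00 in WT, KO and I53A and was above background on 4 arrays.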
